A study of Arabidopsis thaliana with 9 samples.

Results

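PRR9, PRR7, PRR5, PRR3 and TOC1, the pseudo-response regulators of the Arabidopsis circadian clock, were followed with GI, ELF3, ELF4, LUX and JMJD5, genes whose RNA peaks towards the evening. The set was chosen by name, as 10 of the 27655 genes in the expression table, and all 10 were measured in all 9 libraries. This set and the lists of other clock genes were chosen with earlier results of these data known. The shares of all genes set beside their counts are therefore descriptions and not tests of the sets. RNA was sequenced from leaves of 3-week-old Arabidopsis thaliana grown at 22 °C in days of 16 h light and nights of 8 h, and the time of day at harvest is not given in the sources used here. There were 3 genotypes with 3 libraries each. The hyp/c-1 plants (atxr5;atxr5;atxr6hyp;atxr6c-1) carried mutant atxr5 on both copies and 1 copy each of the atxr6 alleles hyp and c-1. The hyp/hyp plants (atxr5;atxr5;atxr6hyp;atxr6hyp) carried mutant atxr5 on both copies and atxr6 hyp on both copies. The WT plants were Col. Both mutants thus share the atxr5 mutation and at least 1 hyp allele, and the series set hyp/c-1 beside hyp/hyp because hyp/c-1 plants have further developmental abnormalities. ATXR5 and ATXR6 are methyltransferases that place single methyl groups on histone H3. Values are TPM, read numbers scaled to gene length and to a common library total, and nothing in the labels says whether libraries came from separate plants or pools, so p-values measure the spread between these libraries only.

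The plant clock is built from transcriptional repressors that follow each other through the day. The MYB factors CCA1 and LHY peak around dawn and repress the evening genes. The pseudo-response regulators are expressed in a sequence from morning to evening, with PRR9 early and TOC1 late, and repress CCA1 and LHY. ELF3, ELF4 and LUX form the evening complex, which represses PRR9 and growth genes such as PIF4 at night. GI works with the F-box proteins ZTL and FKF1 in protein turnover and flowering, and JMJD5 is a jumonji-domain protein co-expressed with the evening genes. A leaf sample is a snapshot of this cycle, so a level depends on the hour of harvest as well as on the genotype, and these cannot be told apart where the hour of each library is not given.

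Promoters were searched for the short DNA elements through which these regulators act, and 3 of them are shown here because they carry the elements beside genes that differed most between genotypes or belong to the evening complex. Each is the 300 bases upstream of the annotated start in the RefSeq annotation of TAIR10.1, written 5′ to 3′ on the strand of the gene, and capitals mark every match of a searched element. The PRR9 window, chr2:19232307-19232606 on the plus strand, held the G-box CACGTG at 244 and 172 bases upstream of the start. It also held CGAATC, the reverse complement of the LUX-binding site GATTCG, at 130 bases upstream.
PRR9 promoter: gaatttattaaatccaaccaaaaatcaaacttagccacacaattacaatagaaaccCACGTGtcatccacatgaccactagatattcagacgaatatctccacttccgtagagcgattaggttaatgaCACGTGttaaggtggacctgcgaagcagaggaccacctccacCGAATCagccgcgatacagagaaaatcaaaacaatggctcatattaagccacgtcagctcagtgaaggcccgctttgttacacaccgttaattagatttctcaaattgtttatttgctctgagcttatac
The TOC1 window, chr5:24674663-24674962 on the plus strand, held the evening element AAAATATCT in reverse orientation at 151 bases upstream, a motif that CCA1 and LHY bind.
TOC1 promoter: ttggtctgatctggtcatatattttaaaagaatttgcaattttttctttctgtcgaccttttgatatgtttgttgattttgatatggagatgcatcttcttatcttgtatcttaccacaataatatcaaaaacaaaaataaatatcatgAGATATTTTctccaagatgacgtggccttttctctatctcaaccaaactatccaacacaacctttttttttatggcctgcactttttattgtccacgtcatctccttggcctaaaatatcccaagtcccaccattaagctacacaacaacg
The LUX window, chr3:17182742-17183041 on the plus strand, held the same element in forward orientation at 53 bases upstream and a G-box at 193 bases upstream.
LUX promoter: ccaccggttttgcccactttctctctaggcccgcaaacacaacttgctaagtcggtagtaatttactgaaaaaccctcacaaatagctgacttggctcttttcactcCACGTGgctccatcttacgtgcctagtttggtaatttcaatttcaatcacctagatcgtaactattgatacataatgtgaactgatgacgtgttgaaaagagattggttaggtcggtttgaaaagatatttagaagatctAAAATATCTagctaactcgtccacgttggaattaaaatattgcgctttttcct

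Over both strands of the 9 members with an annotated 5′ end beyond the coding start (PRR5 has none), the evening element was found in 2 promoters, TOC1 and LUX, and in 2.99% of 20982 promoters of the same length. The G-box, recognised by basic helix-loop-helix and bZIP factors, was found in PRR9, PRR7 and LUX, 3 of 9, and in 7.89% of all promoters. The LUX-binding site, searched as GATTCG or GATACG, was found in PRR9, ELF3 and ELF4, 3 of 9, and in 14.4% of all promoters. The CCA1-binding site AAAAATCT was in 0 of 9 windows and in 8.06% of all promoters. The windows of PRR3, GI and JMJD5 held none of these letters. Sequence further upstream or downstream of the annotated start was not searched, so an empty window does not show that a gene lacks an element. None of these elements overlap each other in the members.

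**Figure D1:**
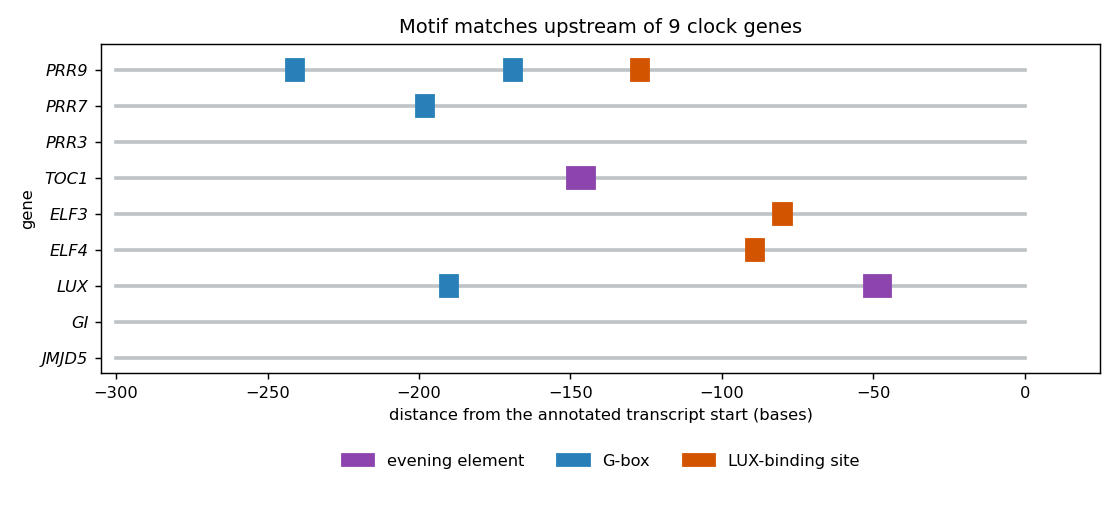
Matches of 4 searched elements in the 300 bases upstream of the start of 9 member genes, drawn by distance from the start in bases. The PRR9 window holds 3 matches and the LUX window 2, while the rows of PRR3, GI and JMJD5 are empty and the CCA1-binding site has no match in any row.

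The libraries held 21289647 to 38766556 reads as recovered from the TPM values, and ATXR5 averaged 1.64 ± 0.0885 TPM in hyp/c-1, 1.83 ± 0.297 TPM in hyp/hyp and 4.28 ± 0.0811 TPM in WT (SD, n = 3 each). ATXR6 had 0 to 2 reads per library in hyp/c-1, 0 to 3 in hyp/hyp and 40 to 41 in WT, which separates both mutants from WT as labelled but does not tell hyp/c-1 from hyp/hyp. The summed TPM of 5 leaf genes was 56899 to 70823 in hyp/c-1, 54152 to 61295 in hyp/hyp and 68309 to 70152 in WT. By the test described below, 2 of the 5, RBCS1A and RBCS2B, were lower in hyp/hyp than in WT (limma adjusted p = 0.0117 and 0.0175). Of all genes tested, 9.31% were lower there. Both passes were lost without WT replicate 1, and that of RBCS2B also without WT replicate 2. The other 3 did not pass in hyp/hyp, and 0 of 5 passed in hyp/c-1 against WT. The 4 root genes summed to 7.91 to 21.8 TPM over the 9 libraries, nearly all from PYK10, and IRT1 and EXPA7 were at 0 in 8 of 9 libraries each. The 4 flower genes summed to at most 1.56 TPM and the 2 seed genes to at most 0.259 TPM. In whole leaves, fewer cells of a type and less RNA per cell cannot be told apart.

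The test was limma on log2(TPM + 1) over 17683 genes with 1 model for the 9 libraries, two-sided, with Benjamini-Hochberg adjustment over all of them. A gene passed at an adjusted p under 0.05 and was called when its log2 difference was also at least 1 in size. Both comparisons with WT use the same 3 WT libraries. In hyp/c-1 against WT, 8 of 10 members passed, PRR9 and PRR7 higher and PRR3, TOC1, ELF3, ELF4, LUX and JMJD5 lower, beside 20.4% of all genes tested. PRR9, TOC1 and JMJD5 were called, 3 of 10, beside 3.20% of all genes (2.61% higher and 0.588% lower). In hyp/hyp against WT, 4 of 10 passed, PRR9 and PRR7 higher and LUX and JMJD5 lower, beside 20.8% of all genes, and PRR9 and JMJD5 were called, 2 of 10, beside 2.87% (2.36% higher and 0.509% lower). The members' median log2 difference was -0.72 in hyp/c-1 and -0.34 in hyp/hyp against WT, where the medians of all tested genes were -0.02 and 0.06. By direction, the 6 members that passed lower in hyp/c-1 stand beside 9.21% of all genes, and the 2 that passed higher beside 11.2%. In hyp/hyp the 2 members lower stand beside 9.31% and the 2 higher beside 11.5%. The hyp/hyp count rests on single libraries: PRR9 alone, 1 of 10, passed without hyp/hyp replicate 1, without hyp/hyp replicate 2, without WT replicate 1 and without WT replicate 2, whereas 7 passed without hyp/c-1 replicate 3, which enters through the shared estimate of spread. Over all genes, 1847 to 4536 passed in hyp/hyp with a library left out, against 3679 with all.

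**Figure D2:**
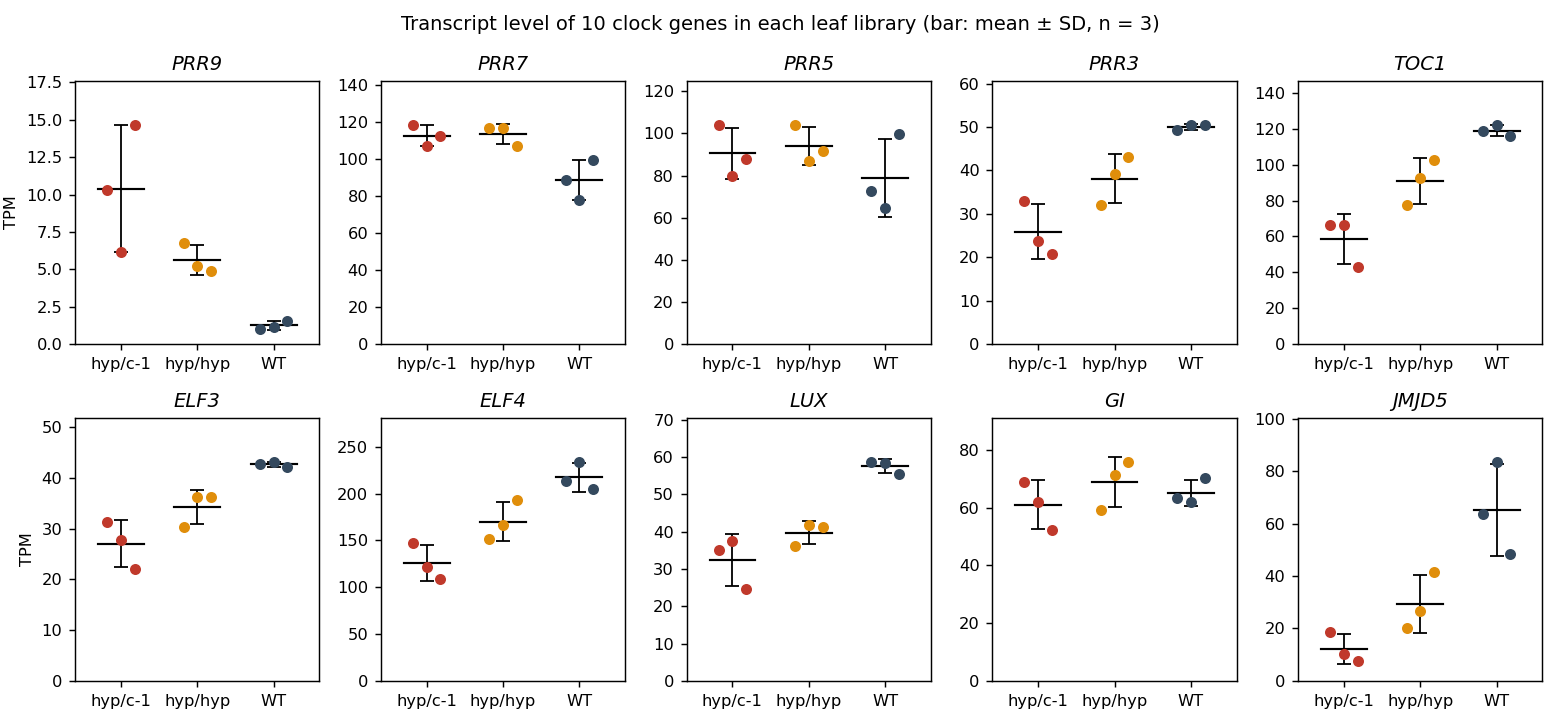
TPM of the 10 genes in each library on linear axes from 0, with hyp/c-1 left, hyp/hyp in the middle and WT right. Points are libraries, bars are means with SD (n = 3 each); PRR9 lies higher in both mutants than in WT, and JMJD5 lies lower in both.

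PRR9, at chromosome 2 from 19232607 to 19235179 on the plus strand (AT2G46790), encodes the earliest pseudo-response regulator of the day and had the lowest mean TPM of the members in every genotype. It had 10.3, 6.19 and 14.7 TPM in hyp/c-1 leaves, 6.77, 5.24 and 4.89 TPM in hyp/hyp, and 1.05, 1.15 and 1.58 TPM in WT. Every mutant library lay above every WT library, and the ranges of the mutants overlapped each other. It averaged 10.4 ± 4.23 TPM in hyp/c-1, 5.63 ± 1.0 TPM in hyp/hyp and 1.26 ± 0.285 TPM in WT (SD, n = 3 each), 8.24 times the WT mean in hyp/c-1 and 4.47 times in hyp/hyp. On the log2(TPM + 1) scale, which understates the change of low genes, PRR9 rose by 2.27 (SE 0.24, limma adjusted p = 0.000239) in hyp/c-1 and by 1.55 (SE 0.24, adjusted p = 0.00251) in hyp/hyp. The WT values rest on 43 to 57 reads per library, against 219 to 551 in hyp/c-1 and 136 to 244 in hyp/hyp. PRR9 passed against WT in both mutants under all 18 alternative settings.

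PRR7, the daytime repressor next in the sequence (AT5G02810, chromosome 5 from 637681 to 642030 on the minus strand), was abundant and narrow in range. It had 118, 107 and 112 TPM in hyp/c-1 leaves, 117, 117 and 107 TPM in hyp/hyp, and 88.3, 77.7 and 99.5 TPM in WT. Both mutants lay above WT with no overlap, and their own ranges overlapped. PRR7 rose by 0.35 in hyp/c-1 (limma adjusted p = 0.0307) and by 0.36 in hyp/hyp (adjusted p = 0.0268), each with SE 0.10. The hyp/c-1 minus hyp/hyp difference was -0.01, with a 95% interval of -0.23 to 0.20. The pass in hyp/c-1 was lost in 7 of 18 alternatives, among them leaving out hyp/c-1 replicate 1 or 3, hyp/hyp replicate 2 or WT replicate 1 or 2 (adjusted p of 0.0504 to 0.123). In hyp/hyp it was lost without hyp/hyp replicate 1 or 2 or WT replicate 1 or 2 (0.0714 to 0.103) and under median-of-ratios scaling (0.0683).

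PRR5, an afternoon member that also represses CCA1 and LHY (AT5G24470, chromosome 5 from 8356204 to 8358546 on the minus strand), did not pass against WT in either mutant. It had 104, 79.8 and 87.7 TPM in hyp/c-1 leaves, 104, 86.7 and 91.6 TPM in hyp/hyp, and 72.5, 64.5 and 99.7 TPM in WT. The groups overlapped, because the highest WT library lay within the range of the mutants. The log2 difference was 0.21 in hyp/c-1 (95% interval -0.14 to 0.56, limma adjusted p = 0.399) and 0.27 in hyp/hyp (-0.08 to 0.62, adjusted p = 0.248).

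PRR3, whose protein binds TOC1 and shields it from ZTL-dependent degradation, and TOC1, the evening member that represses CCA1, were lower in hyp/c-1. PRR3 (AT5G60100, chromosome 5 from 24197971 to 24201415 on the minus strand) had 33.0, 23.8 and 20.8 TPM in hyp/c-1 leaves, 32.1, 39.1 and 43.1 TPM in hyp/hyp, and 49.2, 50.5 and 50.5 TPM in WT. Both mutants lay below WT, and 1 hyp/c-1 library reached into the hyp/hyp range. PRR3 fell by 0.95 in hyp/c-1 (SE 0.16, limma adjusted p = 0.00284), a mean 1.93 times lower. In hyp/hyp the difference was -0.40 (SE 0.16, adjusted p = 0.102), and it passed without hyp/c-1 replicate 1 (adjusted p = 0.0308).

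TOC1 (AT5G61380, chromosome 5 from 24674963 to 24678550 on the plus strand) had 66.6, 66.6 and 42.7 TPM in hyp/c-1 leaves, 77.5, 92.5 and 103 TPM in hyp/hyp, and 119, 122 and 116 TPM in WT. The 3 genotypes did not overlap, with WT highest, hyp/hyp between and hyp/c-1 lowest. TOC1 averaged 58.6 ± 13.8 TPM in hyp/c-1, 90.9 ± 12.7 TPM in hyp/hyp and 119 ± 3.15 TPM in WT (SD, n = 3 each). It fell by 1.04 in hyp/c-1 (SE 0.17, limma adjusted p = 0.00239), a mean 2.03 times lower. Although every hyp/hyp library lay below WT, the difference of -0.39 (SE 0.17) there did not pass (adjusted p = 0.120), though it did in 3 of 18 alternatives, among them the fit without hyp/c-1 replicate 3 (adjusted p = 0.0184). Without that library the hyp/c-1 difference itself was -0.83, past the test but under the fold for a call.

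PRR9 and TOC1, the first and last genes of the sequence, thus changed in opposite directions in hyp/c-1. Every mutant library lay above WT for PRR9 and below WT for TOC1, so their TPM ratio had to separate WT from the mutants. PRR9 stood at 15.5%, 9.29% and 34.3% of the TOC1 level in hyp/c-1, at 8.74%, 5.67% and 4.76% in hyp/hyp, and at 0.882%, 0.942% and 1.37% in WT. The mutants did not overlap each other in this ratio, but 9.29% in hyp/c-1 and 8.74% in hyp/hyp lay close together. The ratio is a description and was not tested.

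All 3 evening complex genes fell in hyp/c-1. ELF3 encodes the scaffold of the complex (AT2G25930, chromosome 2 from 11058944 to 11063324 on the plus strand). It had 31.3, 27.7 and 22.1 TPM in hyp/c-1 leaves, 30.3, 36.3 and 36.2 TPM in hyp/hyp, and 42.7, 43.2 and 42.2 TPM in WT. All mutant libraries lay below the WT libraries, which differed among themselves by little. ELF3 fell by 0.66 in hyp/c-1 (SE 0.12, limma adjusted p = 0.00521), while the hyp/hyp difference was -0.31 (SE 0.12, adjusted p = 0.0971, and 0.0297 without hyp/c-1 replicate 3). ELF3 overlaps 2 genes on the other strand and the counting strand is not given in the sources used here. The overlaps are 183 bases with AT2G08135, which was not analysed here, and 24 bases with AT2G25940, which had 5 to 39 reads per library.

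ELF4 (AT2G40080, chromosome 2 from 16734294 to 16734953 on the minus strand) encodes the small protein that binds ELF3 and had the highest mean TPM of the members in every genotype. TPM is scaled to the gene span, which is 660 bases for ELF4 and 4350 for PRR7. In reads ELF4 was not highest, with 1887 to 2296 per WT library against 5023 to 6138 for PRR7. ELF4 had 147, 122 and 109 TPM in hyp/c-1 leaves, 151, 167 and 193 TPM in hyp/hyp, and 213, 234 and 204 TPM in WT. The 3 genotypes did not overlap and took the same order as for TOC1. ELF4 fell by 0.79 in hyp/c-1 (SE 0.13, limma adjusted p = 0.00230), a mean 1.72 times lower. The hyp/hyp difference was -0.36 (SE 0.13, adjusted p = 0.0712), and it passed without hyp/c-1 replicate 1, hyp/c-1 replicate 3 or hyp/hyp replicate 3 (adjusted p of 0.0351 to 0.0423). PRR3, TOC1, ELF3 and ELF4 also passed in hyp/hyp under median-of-ratios scaling (adjusted p of 0.0136 to 0.0460) and with only the 2 genotypes compared (0.0254 to 0.0336).

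LUX, given the symbol PCL1 in RefSeq (AT3G46640, chromosome 3 from 17183042 to 17186959 on the plus strand), encodes the DNA-binding subunit of the complex. It had 35.0, 37.5 and 24.6 TPM in hyp/c-1 leaves, 36.2, 41.9 and 41.1 TPM in hyp/hyp, and 58.7, 58.4 and 55.3 TPM in WT. Both mutants lay below WT, and their own ranges overlapped. LUX was the evening complex gene that passed in both mutants: it fell by 0.83 in hyp/c-1 (limma adjusted p = 0.00310) and by 0.52 in hyp/hyp (adjusted p = 0.0257), each with SE 0.14. The mean was 1.78 times lower than in WT in hyp/c-1 and 1.45 times lower in hyp/hyp. The pass in hyp/hyp was lost without any 1 of hyp/hyp replicates 1 and 2 or the 3 WT replicates, with adjusted p of 0.0533 to 0.0885. LUX overlaps 1507 bases of AT3G46650 on the minus strand, a gene with 0 to 1 reads per library in hyp/c-1, 0 in hyp/hyp and 0 to 4 in WT.

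GI (AT1G22770, chromosome 1 from 8061751 to 8067790 on the plus strand), which links the clock to flowering, was the member whose level varied least. It had 68.9, 61.8 and 52.3 TPM in hyp/c-1 leaves, 59.3, 71.3 and 75.9 TPM in hyp/hyp, and 63.2, 62.0 and 70.3 TPM in WT. The genotypes overlapped throughout. The log2 difference was -0.10 in hyp/c-1 (95% interval -0.37 to 0.17, limma adjusted p = 0.625) and 0.07 in hyp/hyp (-0.20 to 0.35, adjusted p = 0.702). These intervals leave out a change of the size seen for TOC1 in hyp/c-1 but not a small one.

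JMJD5 (AT3G20810, chromosome 3 from 7275645 to 7278420 on the plus strand) had the widest spread of the 10 on the log2(TPM + 1) scale, with PRR9 close behind it. It had 18.6, 10.3 and 7.47 TPM in hyp/c-1 leaves, 20.1, 26.6 and 41.7 TPM in hyp/hyp, and 63.7, 83.6 and 48.4 TPM in WT. The genotypes did not overlap, but the highest hyp/c-1 library and the lowest hyp/hyp library lay close together, and so did the highest hyp/hyp and the lowest WT library. JMJD5 fell by 2.39 in hyp/c-1 (SE 0.33, limma adjusted p = 0.00117) and by 1.15 in hyp/hyp (SE 0.33, adjusted p = 0.0359). In read numbers the libraries held 303 to 937 JMJD5 reads in hyp/c-1, 744 to 1528 in hyp/hyp and 1881 to 3451 in WT. The hyp/hyp call was lost without hyp/hyp replicate 1 or 2 or WT replicate 1 or 2, with adjusted p of 0.0960 to 0.127, and without the minimum on expression (adjusted p = 0.0598).

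**Figure D3:**
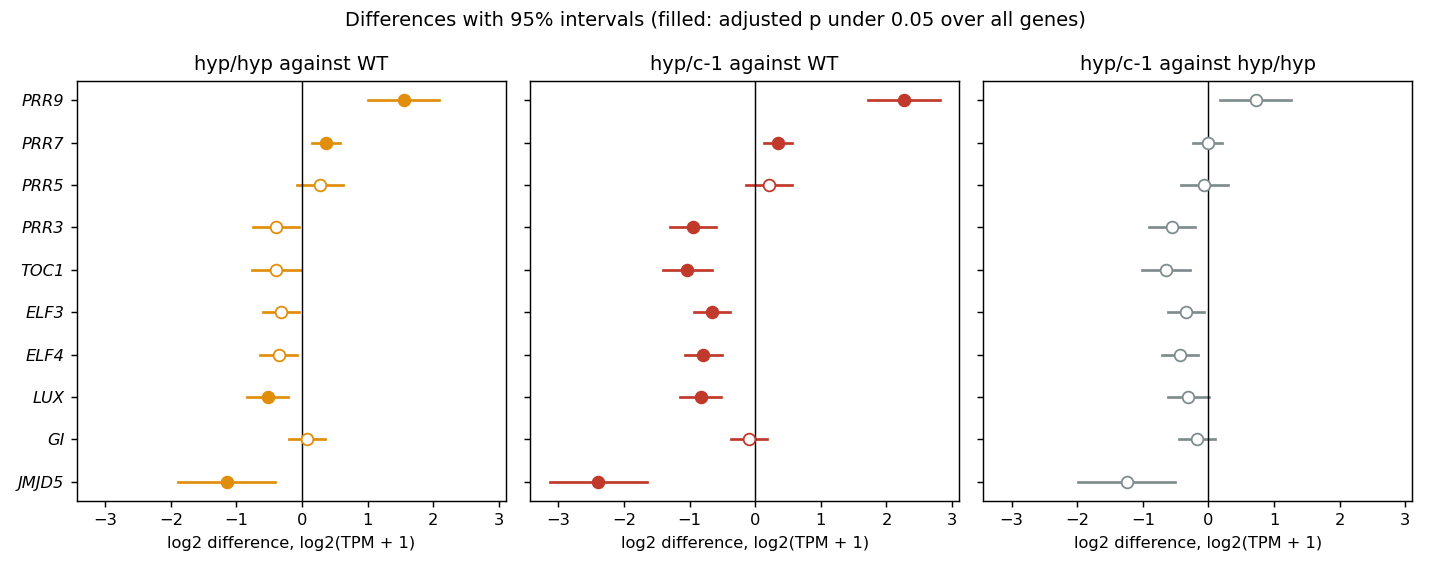
Log2 difference of each gene on the log2(TPM + 1) scale with its 95% interval, in hyp/hyp against WT, hyp/c-1 against WT and hyp/c-1 against hyp/hyp, with filled points at an adjusted p under 0.05. PRR9 stands at 1.55 and 2.27 against WT and JMJD5 at -1.15 and -2.39, while the intervals of GI and PRR5 include 0 in all 3 comparisons.

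Counted by whether the libraries overlap, 8 of 10 members were apart from WT in hyp/c-1, where 38.3% of all genes tested were, and 8 of 10 in hyp/hyp, where 47.3% were. Those below WT were the same 6 genes in both mutants, PRR3, TOC1, ELF3, ELF4, LUX and JMJD5, beside 19.3% of all genes in hyp/c-1 and 19.9% in hyp/hyp. PRR9 and PRR7 were the 2 above, beside 19.0% in hyp/c-1 and 27.5% in hyp/hyp. PRR5 and GI were the 2 that overlapped WT.

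Set directly against hyp/hyp, hyp/c-1 gave no member that passed, 0 of 10, where 2.84% of all genes tested passed, 1.92% higher and 0.922% lower. Likewise 0 of 10 were called, beside 0.226% of all genes called higher and 0.294% lower. By limma's unadjusted p under 0.05 there were 6, namely PRR9, PRR3, TOC1, ELF3, ELF4 and JMJD5, beside 4432 of the 17683 genes tested. Limma voom on the recovered reads passed 0 members. JMJD5 had the largest difference, -1.25 (95% interval -1.99 to -0.50, adjusted p = 0.0700), and TOC1 the lowest adjusted p, 0.0652, with a difference of -0.64. The PRR9 difference was 0.72 (95% interval 0.17 to 1.26, adjusted p = 0.115). TOC1, ELF4 and JMJD5 lay below hyp/hyp in every hyp/c-1 library, 3 of 10, beside 12.1% of all genes. The members' median was -0.32 and that of all tested genes -0.06. These counts turned on single libraries: 5 members passed without hyp/c-1 replicate 1 (PRR3, TOC1, ELF3, ELF4 and JMJD5), 3 without hyp/hyp replicate 1 (PRR3, TOC1 and JMJD5) and 1 without hyp/c-1 replicate 2 (PRR9). The count over all genes moved too, with 1 to 2858 passing with a library left out and 502 with all. At limma's unadjusted p under 0.05, all genes numbered 6537, 4710 and 3774 in the fits just named, against 4432 with all libraries. So larger differences from WT in hyp/c-1 than in hyp/hyp were not shown for any single member.

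Libraries of 1 genotype differed in a shared pattern across the members. In hyp/c-1, replicate 3 was lowest of its genotype for 7 members (ELF3, ELF4, GI, JMJD5, LUX, PRR3 and TOC1) and highest for PRR9. In hyp/hyp, replicate 1 was lowest for the same 7 members and highest for PRR9, PRR7 and PRR5. CCA1, the dawn repressor, was highest of its genotype in the same libraries, with 20.0 TPM in hyp/c-1 replicate 3 and 10.9 TPM in hyp/hyp replicate 1. In WT, replicate 3 was lowest for 5 members, JMJD5 among them, and highest for the other 5, PRR9 among them. No reason for this order within a genotype was tested.

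The rank order of levels changed with genotype, on TPM computed over the whole gene span, introns included. In hyp/c-1 the order from high to low was ELF4, PRR7, PRR5, GI, TOC1, LUX, ELF3, PRR3, JMJD5 and PRR9. The neighbours ELF4 and PRR7, GI and TOC1, LUX and ELF3, ELF3 and PRR3, and JMJD5 and PRR9 overlapped there. In hyp/hyp it was ELF4, PRR7, PRR5, TOC1, GI, LUX, PRR3, ELF3, JMJD5 and PRR9, with overlaps of PRR5 with TOC1, LUX with PRR3, PRR3 with ELF3 and ELF3 with JMJD5. In WT it was ELF4, TOC1, PRR7, PRR5, JMJD5, GI, LUX, PRR3, ELF3 and PRR9, and PRR7 overlapped PRR5, PRR5 overlapped JMJD5 and JMJD5 overlapped GI. By its mean, JMJD5 thus stood beside GI in WT and below all members but PRR9 in both mutants, where its range overlapped that of PRR9 in hyp/c-1. Over all 9 libraries the SD of log2(TPM + 1) was 1.13 for JMJD5 and 1.05 for PRR9, 0.50 for TOC1 and 0.46 for PRR3, 0.20 for PRR7 and 0.16 for GI.

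The morning genes set beside the members were CCA1, LHY, their REVEILLE relatives and the LNK genes, of which 12 of 14 reached the expression minimum. In hyp/c-1, 10 of 12 passed higher and 1 lower, beside 11.2% and 9.21% of all genes, with a median log2 difference of 1.21 where that of all genes was -0.02. In hyp/hyp, 7 passed higher and 1 lower, beside 11.5% and 9.31%, with a median of 0.65 where that of all genes was 0.06. With a library left out, the pass of RVE1 in hyp/c-1 was lost in 6 of 9 fits (limma adjusted p up to 0.135). That of RVE4 in hyp/hyp was lost in 4 of 9 (up to 0.114), and the other morning passes against WT were kept. CCA1, which the pseudo-response regulators repress, had 13.3, 13.7 and 20.0 TPM in hyp/c-1 leaves, 10.9, 9.67 and 6.29 TPM in hyp/hyp, and 1.21, 0.992 and 2.26 TPM in WT. Its 3 genotypes did not overlap, in the order of PRR9's means. CCA1 rose by 2.76 in hyp/c-1 (limma adjusted p = 5.56e-05) and by 2.0 in hyp/hyp (adjusted p = 0.000567). LHY lay under the minimum and was not tested. It had 1.67, 1.31 and 1.59 TPM in hyp/c-1 leaves, 0.935, 0.594 and 0.790 TPM in hyp/hyp, and 0.236, 0.328 and 0.349 TPM in WT.

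RVE8, a MYB factor that activates evening genes including TOC1 and PRR5, rose by 1.56 in hyp/c-1 and by 0.93 in hyp/hyp. The LNK genes encode a family that includes coactivators of RVE8. LNK1 rose in hyp/c-1 by 1.71, LNK2 by 1.28, LNK3 by 2.12 and LNK4 by 1.14 on the log2 scale. In hyp/hyp LNK2 rose by 0.83, LNK3 by 1.17 and LNK4 by 0.86, and the LNK1 difference of 0.66 did not pass (limma adjusted p = 0.0845). LNK3 was the morning gene that passed between the mutants, 0.95 higher in hyp/c-1 (limma adjusted p = 0.0441), a pass lost in 7 of 9 fits with a library left out (adjusted p up to 0.125) and kept without hyp/c-1 replicate 1 or hyp/hyp replicate 1. RVE7 rose by 1.43 in hyp/c-1, and its hyp/hyp difference of 0.57 did not pass. RVE2 was the exception in direction: it averaged 3.88 ± 0.689 TPM in hyp/c-1, 3.48 ± 1.01 TPM in hyp/hyp and 12.5 ± 2.52 TPM in WT (SD, n = 3 each), and fell by 1.46 in hyp/c-1 and by 1.6 in hyp/hyp against WT.

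**Figure D4:**
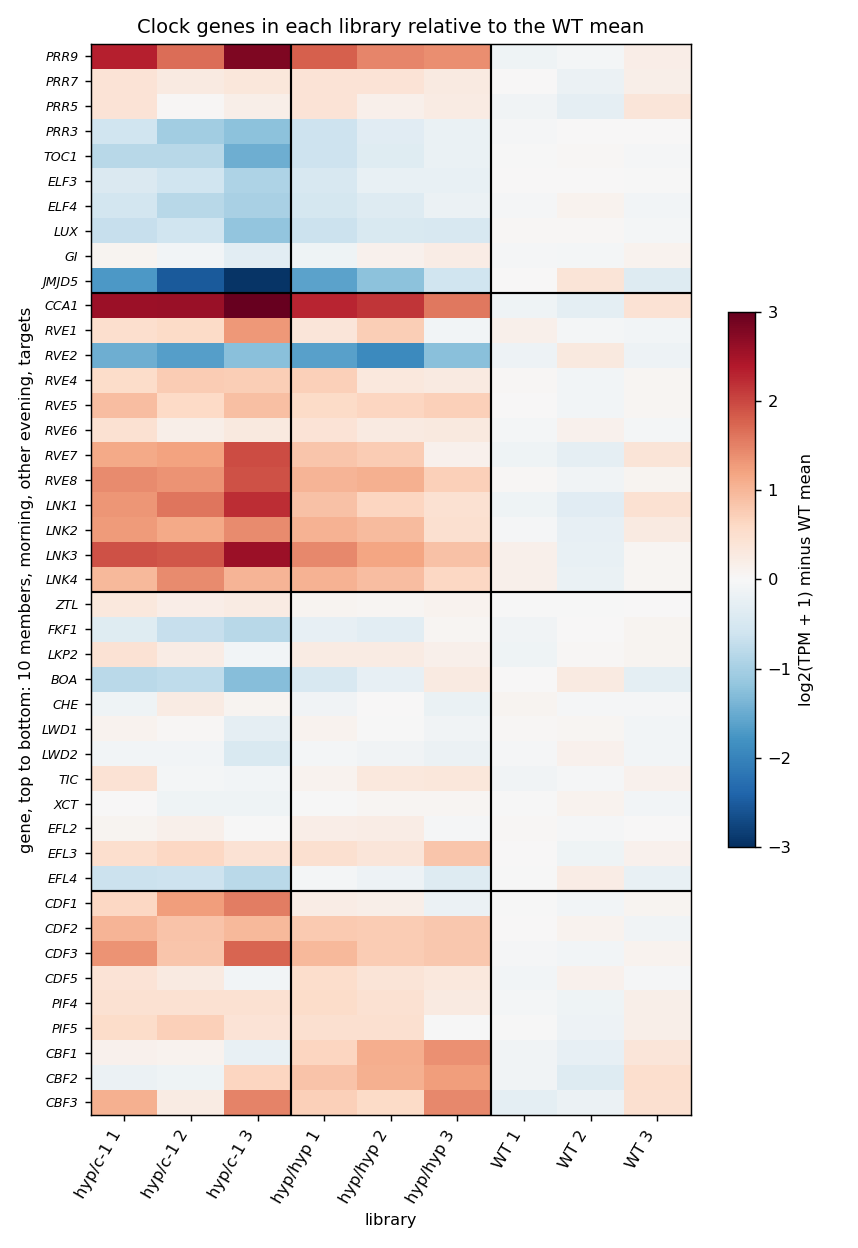
Log2(TPM + 1) of each gene minus its WT mean in each library, as a colour from -3 to 3, with genes down the page (members, morning genes, other evening genes, targets) and libraries across, hyp/c-1 leftmost. CCA1 and PRR9 are on the higher side and JMJD5 on the lower side in all 6 mutant libraries, while GI and PRR5 are pale throughout.

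Of the other evening and period genes, 12 of 13 were tested (EFL1 was listed at 0), and in hyp/c-1 2 passed higher, ZTL and EFL3, and 3 lower, FKF1, BOA and EFL4, beside 11.2% and 9.21% of all genes. In hyp/hyp EFL3 alone, 1 of 12, passed, higher, beside 20.8% of all genes passing in either direction. Between the mutants 0 of 12 passed by limma or by voom. At limma's unadjusted p under 0.05, 1 was higher and 3 lower there, beside 4432 of 17683 genes in either direction. BOA, a close relative of LUX, fell by 0.94 in hyp/c-1, and EFL4, a relative of ELF4, fell by 0.69. FKF1, the light-sensing F-box partner of GI, fell by 0.63, and ZTL, the F-box protein that targets TOC1 for degradation, rose by 0.26. These 5 were named after their values were seen, and none reached a log2 difference of 1. Without WT replicate 1 or WT replicate 2, ZTL, BOA and EFL3 no longer passed in hyp/c-1 (adjusted p of 0.0504 to 0.105), and neither did ZTL without WT replicate 3 (0.0742) or EFL3 without hyp/c-1 replicate 2 (0.0807). EFL3 no longer passed in hyp/hyp without hyp/hyp replicate 3, WT replicate 1 or WT replicate 2 (0.0581 to 0.0836).

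Clock output genes were in part higher, among them CDF, PIF and CBF genes known to be repressed by pseudo-response regulators or the evening complex. Of 9 tested among 11 (CO and FT lay under the minimum), 5 passed higher in each mutant against WT, beside 11.2% of all genes in hyp/c-1 and 11.5% in hyp/hyp, and 0 passed lower by limma or voom, with 0 lower at an unadjusted p under 0.05. In hyp/c-1 they were CDF1, CDF2, CDF3, PIF4 and PIF5, and in hyp/hyp CDF2, CDF3, PIF4, CBF1 and CBF2. The passes of PIF4 and PIF5 were lost without WT replicate 1 or 2, PIF5 also without hyp/c-1 replicate 2 and PIF4 in hyp/hyp without hyp/hyp replicate 2 (adjusted p of 0.0506 to 0.0934). CDF1, a repressor of flowering genes, averaged 12.6 ± 4.13 TPM in hyp/c-1, 5.31 ± 0.931 TPM in hyp/hyp and 4.96 ± 0.305 TPM in WT (SD, n = 3 each). It differed between the mutants, 1.06 higher in hyp/c-1 (limma adjusted p = 0.0370). CBF1, a regulator of the cold response, went the other way between them: it averaged 3.89 ± 0.647 TPM in hyp/c-1, 9.19 ± 2.57 TPM in hyp/hyp and 3.96 ± 1.17 TPM in WT, and was 1.03 lower in hyp/c-1 than in hyp/hyp (limma adjusted p = 0.0387). With a library left out, the CDF1 difference between the mutants was lost in 7 of 9 fits (adjusted p up to 0.102), as it was by voom, which passed 0 of 9 higher, and that of CBF1 in 6 of 9 (up to 0.115). CDF3 rose by 1.31 in hyp/c-1 and 0.85 in hyp/hyp, and CBF2 by 1.07 in hyp/hyp, where its hyp/c-1 difference of 0.11 did not pass. The CBF2 call was lost without hyp/hyp replicate 2 or 3 or WT replicate 1 or 2 (adjusted p of 0.0508 to 0.0718).

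Genes that respond within minutes to handling or stress were followed beside the members. Their 6 genes summed to 347 to 862 TPM in hyp/c-1, 625 to 1038 TPM in hyp/hyp and 491 to 787 TPM in WT. TCH4 weighed most in these sums, with means of 328 TPM in hyp/c-1 (120 to 650), 379 TPM in hyp/hyp and 436 TPM in WT. Its mean was highest in WT, while those of the other genes were highest in hyp/hyp. ZAT10, a zinc-finger repressor of stress responses, rose by 1.01 in hyp/hyp against WT (limma adjusted p = 0.0177), which was lost without hyp/hyp replicate 3, WT replicate 1 or WT replicate 2 (up to 0.0725). In hyp/hyp against WT 1 of 6 passed by limma, beside 20.8% of all genes tested, and 2 by voom. At limma's unadjusted p under 0.05, 4 were higher there, beside 6282 of 17683 genes in either direction. WRKY40 had the largest difference there, 1.26, which did not pass (limma adjusted p = 0.0726). In hyp/c-1 against WT 0 of 6 passed by limma, beside 20.4% of all genes, or by voom, with 0 at an unadjusted p under 0.05. Between the mutants 0 of 6 passed by limma, beside 2.84% of all genes, and 1 by voom, lower in hyp/c-1. The median difference of the 6 was -0.92, where that of all tested genes was -0.06. At limma's unadjusted p under 0.05, 5 were lower there, beside 4432 of 17683 genes in either direction. The part of these genes in the members' results was not tested.

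The genes most like the members in pattern were sought among 13861 genes whose mean reached 5 TPM, for the 3 members that varied most, by the root mean square difference of centred log2(TPM + 1) over 9 libraries. For PRR9 the nearest was BBX16 (AT1G73870), at 0.211 where the median over all genes was 1.01, with 19.2 to 32.1 TPM in hyp/c-1, 9.46 to 15.0 TPM in hyp/hyp and 3.13 to 5.67 TPM in WT. AT3G28540 at 0.218 and AT1G36675 at 0.223 came next. For JMJD5 they were EXPA16, an expansin, at 0.300, COR27 (AT5G42900), a cold-regulated repressor of clock genes, at 0.334, and AT1G30250 at 0.386, where the median was 1.05. COR27 had 14.6 to 37.1 TPM in hyp/c-1, 44.3 to 78.5 TPM in hyp/hyp and 81.2 to 97.5 TPM in WT. For TOC1, which varied less, they were AT5G66052 at 0.0996, BGAL10 (AT5G63810) at 0.104 and RABG3B (AT1G22740) at 0.115, where the median was 0.471. The likeness is a description over libraries that share genotype and library, with no test.

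**Figure D5:**
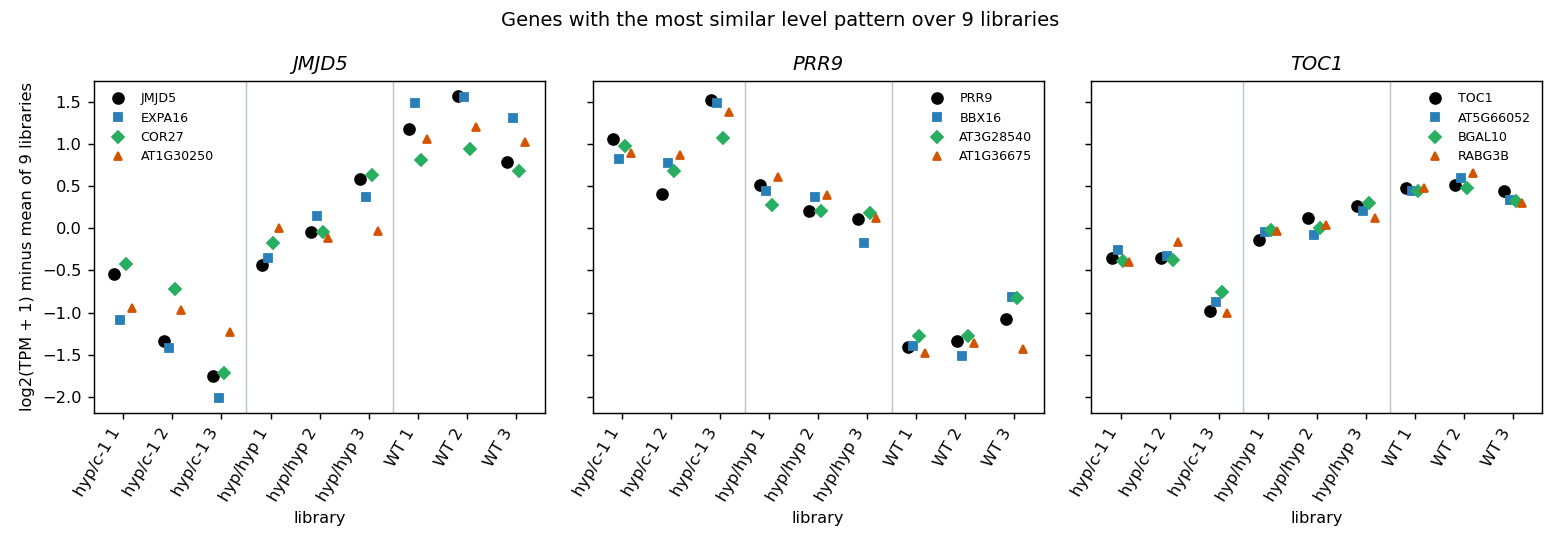
Centred log2(TPM + 1) of JMJD5, PRR9 and TOC1 and of the 3 genes nearest to each in pattern, by library, with hyp/c-1 left, hyp/hyp in the middle and WT right. By their means, PRR9 and BBX16 are highest in hyp/c-1 and lowest in WT, and JMJD5 and COR27 the reverse, while the PRR9 values of the mutants overlap.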

How the data were processed

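RNA was sequenced from 9 leaf libraries, 3 each of hyp/c-1, hyp/hyp and WT. The authors deposited 1 table of TPM values, and per the submitters' processing notes fastp 0.20.1, HISAT2 2.1.10 and DESeq2 1.26.0 were used with build TAIR10; the counting program and its strand setting are not given in the sources used here. Multiplied by the RefSeq gene span, 99.98% of 191811 values above 0 came out as whole multiples of 1 read within 0.02 read, so TPM was set per gene span, introns included, and reads could be recovered. A floor of 3 reads on a gene of 2000 bp is 0.0825 to 0.149 TPM and covers counting error only. No duplicate libraries were found.

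Genes that averaged 1 TPM or more entered limma 3.58.1 in R 4.3.3 on log2(TPM + 1), a pseudocount of 1, with an expression trend, 6 residual degrees of freedom and Benjamini-Hochberg adjustment over 17683 genes; the script was tested on simulated data. Coordinates and promoters are from RefSeq TAIR10.1. Alternatives were another pseudocount, minimum, scaling or model, voom on recovered reads, a replicate block and leaving out each library. The text names the members, ATXR5, ATXR6, CCA1, LHY, other clock genes that were called, and the genes nearest in pattern to 3 members. Other listed genes that passed (CDF2, PIF4, PIF5, ZTL, EFL3, FKF1, BOA, EFL4, RVE1, RVE4, RBCS1A, RBCS2B), ZAT10, WRKY40, TCH4 and genes overlapping members were named after their values were seen. The members and lists were chosen with earlier results of these data known.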

Additional observations from a re-analysis of the deposited data

How the results depend on the processing

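Depth limits PRR9 most, at 43 to 57 reads in WT. Each member was refitted under 18 alternatives per comparison. In hyp/c-1 against WT, 172 of these kept direction and side of the threshold, 7 lost the pass, all of them PRR7, and GI ranged over -0.19 to 0.00530 with a library left out, above 0 without hyp/c-1 replicate 3. In hyp/hyp against WT, 145 kept both, 17 lost and 17 gained a pass, and GI ranged over -0.000231 to 0.18 with a library left out, below 0 without hyp/hyp replicate 3. TOC1, PRR3, ELF3 and ELF4 passed in hyp/hyp under 3, 4, 4 and 6 of 18. The 4 members passing in hyp/hyp became 7 under median-of-ratios scaling, 8 with only the 2 genotypes compared and 1 to 7 with a library left out. At limma's unadjusted p under 0.05, all genes numbered 6550 under median-of-ratios scaling and 7362 with only the 2 genotypes compared, against 6282 in the main fit. The 2 members called in hyp/hyp became 1 with no minimum and 1 to 2 with a library left out. In hyp/c-1 against WT, 7 to 8 passed and 2 to 4 were called with a library left out. Between the mutants 0 to 5 passed and 0 to 1 were called with a library left out. Over all genes, leaving out a library gave 1847 to 4536 passing in hyp/hyp (3679 with all), 1990 to 3962 in hyp/c-1 (3605) and 1 to 2858 between the mutants (502), where no minimum gave 220 and only the 2 genotypes compared gave 0. Between the mutants PRR7 turned to 0.0525 under median-of-ratios scaling, 0.0183 under quantile normalization, 0.00348 under voom, and lay at -0.0524 to 0.0234 with a library left out (0.0234, 0.00805 and 0.00800 without hyp/c-1 replicate 2 and hyp/hyp replicates 1 and 2). PRR5 turned to 0.00368 under median-of-ratios scaling and lay at -0.164 to 0.0246 with a library left out (0.0246 and 0.0127 without hyp/c-1 replicate 2 and hyp/hyp replicate 1), and ATXR6 to 0.0284 under quantile normalization. The causes were not tested.

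Libraries of the same number shared deviations at correlations of -0.272 to 0.10, so the numbers do not pair them. With the replicate block, 2 members passed and 1 was called in hyp/hyp (JMJD5 and PRR7 no longer passed, adjusted p = 0.0692 and 0.0523), 7 passed in hyp/c-1, and 0 genes passed between the mutants. All genes at limma's unadjusted p under 0.05 fell with the block too. They numbered 5638 in hyp/hyp against WT (6282 in the main fit) and 5324 in hyp/c-1 against WT (5889).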
